A study of Mus musculus with 45 samples.

Results

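The genes described here are 9 for which loss or inhibition of the protein is known to increase the share of 2-cell-like cells in cultures of mouse embryonic stem cells (mESCs): Chaf1a, Chaf1b, Kdm1a, Zmym2, Hdac1, Hdac2, Smchd1, Lin28a and Ncl. The rule that picked them from the 55401 genes of the series is a list of names and uses no measured value. All 9 had values in every group and passed the filter on low values in every comparison. The series holds RNA-seq of 45 libraries in 15 groups of 3. In EHMT2-dTAG-mcherry mESCs (strain BL6/129), a degron fused to the histone methyltransferase EHMT2 lets the compound dTAG-13 destroy the protein, and the control groups carry the same fused allele and receive the solvent DMSO. Clones E2-17, E2-20 and E2-K71 were given DMSO or dTAG for 24 h or 7 d in the first experiment. In the second, the same 3 clones were given DMSO for 15 d, dTAG for 15 d, or dTAG for 7 d and then none for 8 d (Recovery). In the third, an EHMT2-dTAG-mcherry-mervl-gfp line received DMSO or dTAG-13 for 72 h and was sorted on GFP driven by the endogenous retrovirus MERVL, so that GFP-negative cells stand for mESC and GFP-positive ones for 2-cell-like cells (2CLC). In the last, WTJ1 mESCs (WT) and DPPA4KO mESCs (KO), which lack the activator DPPA4 through CRISPR/Cas9 editing, received UNC0638, which blocks the enzymes EHMT1 and EHMT2, or DMSO for 48 h. The labels describe 3 independent clones of each genotype there, and all cells grew in serum and LIF, on mouse embryonic fibroblast feeders.

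2CLCs are rare cells of mESC cultures that switch on genes and retroviral repeats of the embryo at the 2-cell stage, and the 9 proteins act at different steps that hold this programme off. CHAF1A and CHAF1B are subunits of CAF-1, which loads histones onto newly copied DNA. KDM1A (LSD1) removes methyl groups from histone H3 in a complex with the deacetylases HDAC1 and HDAC2, to which the zinc-finger protein ZMYM2 binds. SMCHD1 is a chromosome-structure protein that keeps the inactive X chromosome and the Dux gene array silent, and the RNA-binding protein LIN28A and the nucleolar protein nucleolin (Ncl) act in the nucleolus, where Dux is held repressed. Most of these repressors work as proteins on chromatin, and RNA-seq measures only their transcripts.

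The Hdac1 row is described first, because it shares its sequence with a second row. Reads were aligned without introns and a read that fitted several places was written to 1 of them at random, so reads that span an exon junction could not be placed on a spliced gene but could be placed on a processed pseudogene, an intronless copy. Hdac1-ps, a processed pseudogene at chr17:78491582-78493025 (plus strand, GENCODE vM21, GRCm38), was 99.4% identical to the spliced Hdac1 transcript over 1444 bases, with 9 mismatches, and the matching stretch held 13 of 13 junctions of the 14 exons. The pair of 80-base stretches below shows why reads of the 2 loci are hard to tell apart. The Hdac1 stretch joins 40 bases of exon 7, which ends at base 129521418 of chromosome 4, to 40 bases of exon 8, which begins at base 129519160. The Hdac1-ps stretch is unbroken at chr17:78492271-78492350. The capital marks their single difference, T719C, counted from the first base of the start codon of Hdac1.
Hdac1: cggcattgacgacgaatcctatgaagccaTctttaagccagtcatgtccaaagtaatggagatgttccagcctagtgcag
Hdac1-ps: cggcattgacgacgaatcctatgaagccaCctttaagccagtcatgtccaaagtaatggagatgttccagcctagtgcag

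The Hdac1-ps row was higher than the Hdac1 row in all 15 groups, by 4.87 to 58.2 times, and held 83.0% to 98.3% of the sum of both. In WT DMSO cells, for example, the mean normalized count was 119.0 ± 23.1 (SD, n = 3) for Hdac1 and 6424 for Hdac1-ps. Among further copies, Gm4864 (94.6% identical) had 81.0 to 546 normalized counts over the groups and Gm5824 (96.3% identical) had 5.76 to 136. Values of Hdac1 are therefore given below with those of the sum of Hdac1 and Hdac1-ps, an addition made after the values were seen. Ncl also has 2 copies with reads. Gm12020 (89.0% identical over 1779 bases) and Gm17837 (93.1% over 654 bases) had 386 to 686 and 217 to 315 normalized counts in the 24 h and 7 d groups, and no more than 5.48 and 1.03 in the other groups. Among annotated pseudogenes, the only transcripts searched, no copy of at least 85% identity over at least 150 bases was found for the other 7 genes.

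**Figure D1:**
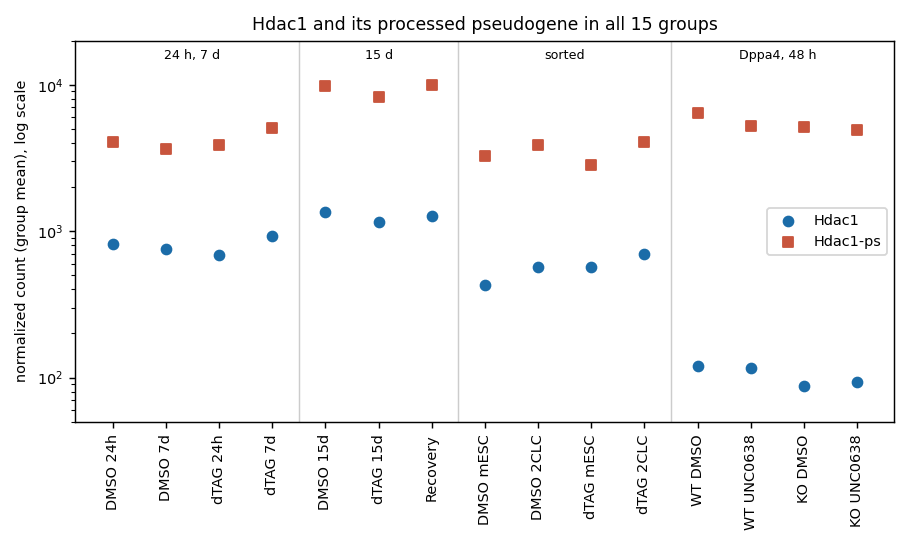
Group means of the normalized count of Hdac1 (circles) and of its processed pseudogene Hdac1-ps (squares) in the 15 groups, on a log scale, with grey lines between experiments that were normalized apart. The squares lie above the circles in every group, by 4.87 to 58.2 times.

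The 9 genes lie on 6 chromosomes in GENCODE vM21 (GRCm38). Ncl occupies chr1:86344719-86359400 (minus strand). Hdac1 (chr4:129516104-129542713), Lin28a (chr4:134003330-134018841) and Kdm1a (chr4:136550540-136602723) are all on the minus strand of chromosome 4. Hdac2 occupies chr10:36974544-37001889 (plus), Zmym2 chr14:56886653-56962701 (plus), Chaf1b chr16:93883901-93906115 (plus), Chaf1a chr17:56040439-56072289 (plus) and Smchd1 chr17:71344489-71475343 (minus). Annotated genes on the opposite strand overlap Chaf1a (Ubxn6), Kdm1a (Luzp1), Smchd1 (Gm26561 and AC107664.1) and Lin28a (Gm13061). Counting used the default parameters of TE Counts, and no strand setting is named, so reads of these partners may be part of the values. Annotated genes on the same strand overlap Chaf1b (Gm49617), Kdm1a (Gm12987) and Smchd1 (Gm4707), and reads there may be shared whatever the strand setting.

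Promoter sequence from RefSeq (GRCm38.p6) was at hand for 8 of the 9 genes, all but Hdac1. The 250 bases before the start are shown for the 3 genes that differed most between 2CLC and mESC (Chaf1b and Lin28a lower, Zmym2 higher) and for Hdac2, the gene that was higher in every comparison of EHMT2 loss. Each is written along its gene's strand, from chr16:93883651-93883900 (Chaf1b), chr4:134018817-134019066 (Lin28a, minus strand), chr14:56886353-56886602 (Zmym2, 1 of its 2 starts) and chr10:36974294-36974543 (Hdac2). Capitals mark a GC box (GGGCGG) or a CCAAT box (CCAAT), on either strand.
Chaf1b: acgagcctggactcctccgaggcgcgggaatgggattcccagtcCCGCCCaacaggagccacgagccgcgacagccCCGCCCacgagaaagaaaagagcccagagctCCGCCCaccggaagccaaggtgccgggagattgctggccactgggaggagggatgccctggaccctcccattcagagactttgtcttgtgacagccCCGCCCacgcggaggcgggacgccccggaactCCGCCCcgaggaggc
Lin28a: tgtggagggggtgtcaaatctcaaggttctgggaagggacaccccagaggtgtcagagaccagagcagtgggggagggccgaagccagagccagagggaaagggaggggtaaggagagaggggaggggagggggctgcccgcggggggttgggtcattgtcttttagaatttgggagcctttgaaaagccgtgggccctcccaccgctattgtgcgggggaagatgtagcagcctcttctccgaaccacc
Zmym2: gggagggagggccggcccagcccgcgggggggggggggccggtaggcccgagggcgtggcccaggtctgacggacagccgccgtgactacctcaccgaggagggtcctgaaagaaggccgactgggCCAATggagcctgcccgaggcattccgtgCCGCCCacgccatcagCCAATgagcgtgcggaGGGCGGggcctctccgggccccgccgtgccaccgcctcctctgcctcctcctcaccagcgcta
Hdac2: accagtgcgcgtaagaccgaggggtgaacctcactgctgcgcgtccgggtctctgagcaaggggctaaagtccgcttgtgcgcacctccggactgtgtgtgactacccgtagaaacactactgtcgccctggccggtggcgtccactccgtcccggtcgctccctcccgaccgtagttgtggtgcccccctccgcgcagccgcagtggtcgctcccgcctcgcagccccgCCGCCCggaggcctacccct

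The Chaf1b promoter held 5 GC boxes, that of Zmym2 held 2 GC boxes and 2 CCAAT boxes, that of Hdac2 held 1 GC box, and that of Lin28a held neither. All 8 promoters were richer in G and C (59.2% to 75.6%) than the median promoter (52.4%). A GC box was present in 5 of the 8 (Chaf1b, Zmym2, Hdac2, Smchd1 and Ncl) and in 32.7% of 32851 promoters of the same length. A CCAAT box was present in 3 of the 8 (Chaf1a, Kdm1a and Zmym2), and in 33.8% of all. The E2F letters TTTGGCGC, TTTCCCGC or TTTCGCGC were present in 1 of the 8 (Ncl) and in 1.53% of all, whereas TATAAA (12.4% of all) and the octamer ATGCAAAT (1.6%) were in none of the 8. These motifs were searched on both strands and are descriptions of the sequence only.

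Between genes, levels were compared per kilobase of exon in the 3 WT DMSO libraries, which grew without drug and without an edited allele. Lin28a had the highest level, at 1681 ± 283 normalized counts per kilobase (SD, n = 3), followed by Ncl at 331 ± 52.7, Kdm1a at 218 ± 27.6, Chaf1a at 122 ± 16.9 and Chaf1b at 80.1 ± 13.2. Hdac2 (44.2 ± 6.85), Hdac1 (34.5 ± 6.72) and Zmym2 (33.1 ± 10.2) followed, and Smchd1 was lowest at 3.71 ± 0.861. The 3 libraries of neighbouring genes in this order did not overlap, except that Hdac2 overlapped Hdac1 and Hdac1 overlapped Zmym2. Lengths were those of all annotated exons together. With the length of 1 transcript per gene, a choice made after the values were seen, the 9 genes kept this order, but Chaf1a (196 ± 27.1) and Chaf1b (195 ± 32.1) were level and Ncl (411 ± 65.4) overlapped Kdm1a (373 ± 47.2). Reads that span an exon junction could not be placed on these genes, so genes of many short exons can lose more of their reads. That transcript had 4 exons in Lin28a (longest 2992 bases) and 14 in Ncl (5978). It had 14 in Chaf1b (432) and 48 in Smchd1 (877). The part of this loss in the order was not tested. The place of Hdac1 rests on its own row, without Hdac1-ps. In WT DMSO the sum of both rows was 6543 normalized counts, 98.2% of them on Hdac1-ps, against 6716 for Lin28a before division by length. The low place of Hdac1 therefore does not hold for the sum.

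For the dTAG and sorting experiments the deposited tables give the authors' mean of each group only. Their comparisons therefore have no SD, no n and no test here, and the sequencing depth of the libraries behind them is unknown. A difference is described as a ratio of group means, each with a pseudocount of 1 added, and was counted when it reached 1.5-fold, a limit set after the values were seen. The share of all genes past the same limit is given with the counts. Experiments were normalized apart, so values compare within an experiment only.

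**Figure D2:**
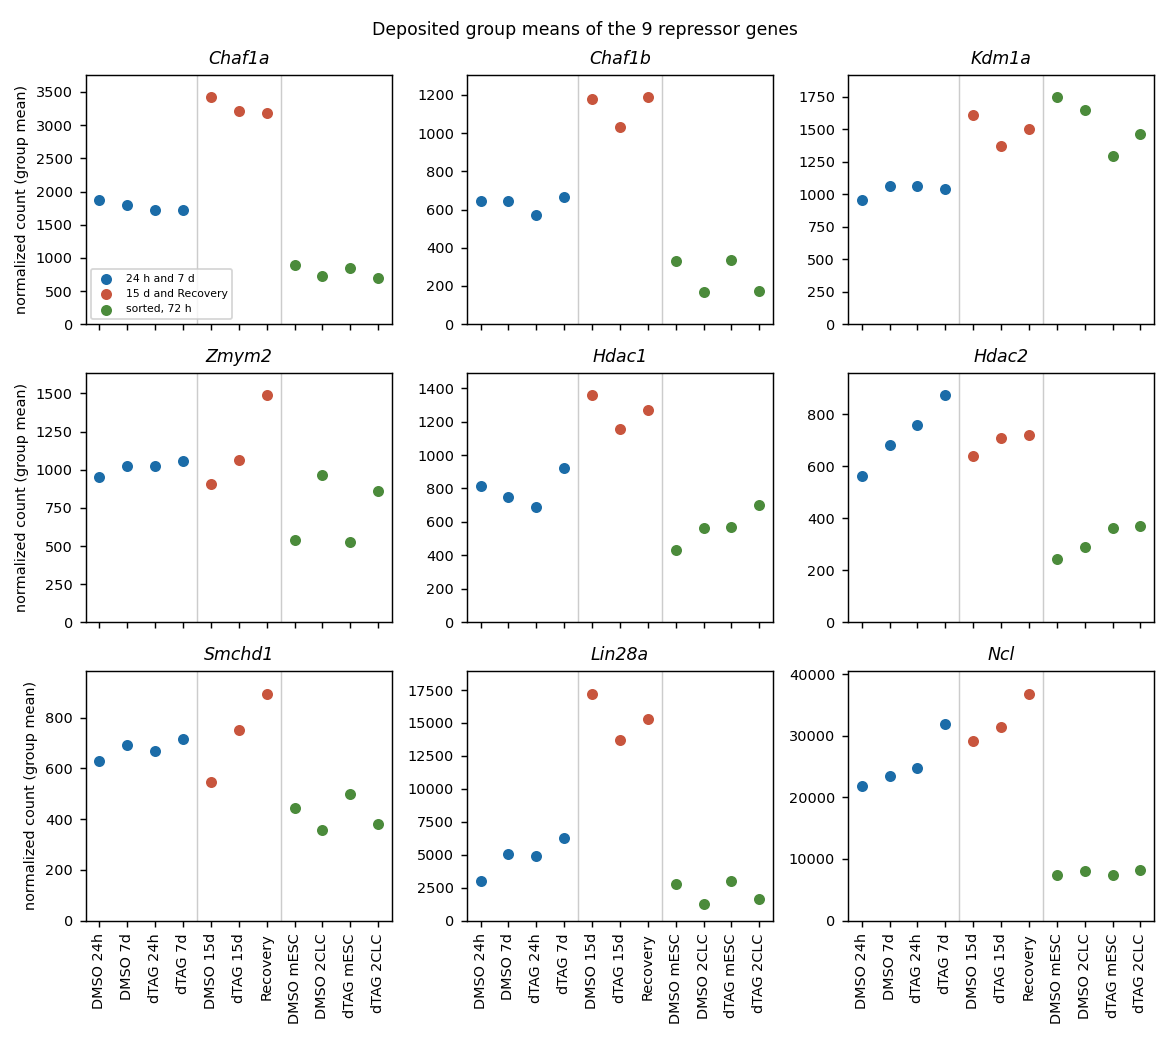
Deposited group mean of the normalized count (linear axes from 0) of each of the 9 genes in the 11 groups of the time course (blue), the 15 d and Recovery experiment (orange) and the sorted cells (green). Each point is 1 group mean of 3 libraries without an error, and Chaf1b and Lin28a sit lower in both 2CLC groups than in both mESC groups, while Zmym2 sits higher.

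Sorting asked whether cells that had entered the 2-cell-like state differed in these transcripts from those that had not. Chaf1b and Lin28a were lower in 2CLC than in mESC and Zmym2 was higher, each by at least 1.5-fold with and without EHMT2. The other 6 genes stayed within that limit in both arms. In all genes, 25.7% were higher and 20.2% lower by as much in the DMSO arm, 23.2% and 19.2% in the dTAG arm, and 19.6% higher and 13% lower in both arms. The counts of 1 higher and 2 lower among 9 genes stayed near those shares. At 2-fold, Lin28a in the DMSO arm was the 1 gene of the 9 that passed, where 27.3% of all genes did in DMSO and 23.8% in dTAG. The median log2 difference over the 9 genes was -0.08 in DMSO and 0.02 in dTAG, against -0.01 and -0.04 over all genes tested.

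Chaf1b had 329 normalized counts in DMSO mESC, 167 in DMSO 2CLC, 336 in dTAG mESC and 174 in dTAG 2CLC. The 2CLC mean was 0.51 times the mESC mean in DMSO and 0.519 times in dTAG, so the difference was of the same size in both arms. Its CAF-1 partner Chaf1a had 887, 729.9, 840.1 and 701 in the same order, ratios of 0.823 and 0.834. Both subunits were lower in 2CLC, the smaller one by more.

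Other genes of CAF-1 and of histone supply were read beside these subunits. Of 6 genes of CAF-1 and histone supply (Rbbp4, Asf1a, Asf1b, Pcna, Nasp and Hat1), 2 were higher by 1.5-fold in the DMSO arm and none was lower, with a median log2 difference of 0.076, where 25.7% of all genes were higher. Asf1a, a chaperone that hands histones H3 and H4 to CAF-1, had 222 and 388 normalized counts in DMSO mESC and 2CLC (1.74-fold) and 265 and 463 in the dTAG arm (1.74-fold). Its paralog Asf1b had 529.9 and 840.4 in DMSO (1.58-fold) and 1.19-fold in dTAG. Since CAF-1 works at the replication fork, 20 genes of DNA replication were read beside it. None was higher and 4 were lower by 1.5-fold in each arm, with a median log2 difference of -0.37 in both, and 17 of 20 were below 0. The count of 4 of 20 stayed near the share of all genes, of which 20.2% were lower in DMSO and 19.2% in dTAG. Rrm2, a subunit of the enzyme that makes deoxynucleotides, was at 0.558 times its mESC level, Mcm6, a subunit of the replicative helicase, at 0.5596 times, and cyclin E1 (Ccne1) at 0.639 times in DMSO.

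Lin28a had 2796 normalized counts in DMSO mESC, 1284 in DMSO 2CLC, 3001 in dTAG mESC and 1627 in dTAG 2CLC. The ratios of 0.459 and 0.543 made it the lowest of the 9 genes in 2CLC relative to mESC in the DMSO arm, and close to Chaf1b in the dTAG arm. Its paralog Lin28b was lower as well, with 583 and 342 counts in DMSO (0.587) and 531 and 253 in dTAG (0.478). It was the only 1 of 9 paralogs past the limit in the DMSO arm, where 20.2% of all genes were lower and 25.7% higher. Ncl, with which LIN28A acts, was near level at 7478 and 8015 in DMSO (1.07-fold) and 7328 and 8189.6 in dTAG (1.12-fold). Of 20 genes of ribosome biogenesis, 2 were higher (Nop56, 1.66-fold, and Heatr1, 1.51-fold) and 1 lower (Rrp9, 0.641) in DMSO, with a median log2 difference of -0.02 and against 25.7% and 20.2% of all genes.

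Zmym2 had 542 normalized counts in DMSO mESC, 967 in DMSO 2CLC, 529 in dTAG mESC and 858 in dTAG 2CLC. It was higher in 2CLC by 1.78-fold and 1.62-fold, the opposite direction to Chaf1b and Lin28a. The enzymes it binds were nearer to level. Kdm1a had 1746, 1649, 1296 and 1465 normalized counts in the same order, a ratio of 0.944 in DMSO and 1.13 in dTAG, so its direction differed between the arms. Hdac2 had 246, 291, 364 and 370.4, ratios of 1.18 and 1.02. Hdac1 had 431, 565, 570.3 and 700.2, ratios of 1.31 and 1.23, and the sum of Hdac1 and Hdac1-ps was also higher in 2CLC, with 3685 and 4421 in DMSO and 3392 and 4753 in dTAG.

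Of 12 partners of the LSD1, CoREST and HDAC complexes, none was higher and 4 were lower by 1.5-fold in DMSO, with a median log2 difference of -0.31. Of all genes, 25.7% were higher and 20.2% lower by as much. Mta1, a subunit of the NuRD complex, was at 0.585 times its mESC level, and Phf21a, a reader of unmethylated histone H3 in the LSD1 complex, at 0.588 times. In dTAG, 2 of the 12 were lower past the limit, where 19.2% of all genes were. Smchd1 had 443 normalized counts in DMSO mESC, 358 in DMSO 2CLC, 500.3 in dTAG mESC and 381 in dTAG 2CLC. It was lower in 2CLC in both arms (0.8095 and 0.762) and short of the limit.

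The sort itself was plain in the markers. The MERVL-int repeat had a group mean of 6891 in DMSO mESC and 1643470 in DMSO 2CLC, and the sum of the 12 measured 2-cell-like markers went from 838 to 150831 in DMSO and from 11331 to 281706 in dTAG. All 12 were higher by at least 1.5-fold in both arms, while Eif1ad8 and Dub1, also listed, had no row. The summed level of 8 pluripotency markers went from 59068 to 35763 in DMSO and from 50338 to 36430 in dTAG, and 5 and 4 of the 8 were lower by 1.5-fold, against 20.2% and 19.2% of all genes, with Sox2 at 11238 and 3736 but Nanog at 6349.7 and 8924 in DMSO. The summed level of 12 fibroblast markers was also higher in 2CLC, with 504 and 1282 in DMSO and 885 and 2107 in dTAG, and 7 and 9 of the 9 measured markers were higher past the limit, against 25.7% and 23.2% of all genes. Thy1 had 144 and 561 in DMSO, whereas Lum was at most 0.514 and Dcn at most 4.59 in any sorted group. In RNA of mixed cells, fewer cells of a type and less RNA per cell cannot be told apart. The part of feeder cells in the differences above was not tested.

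**Figure D3:**
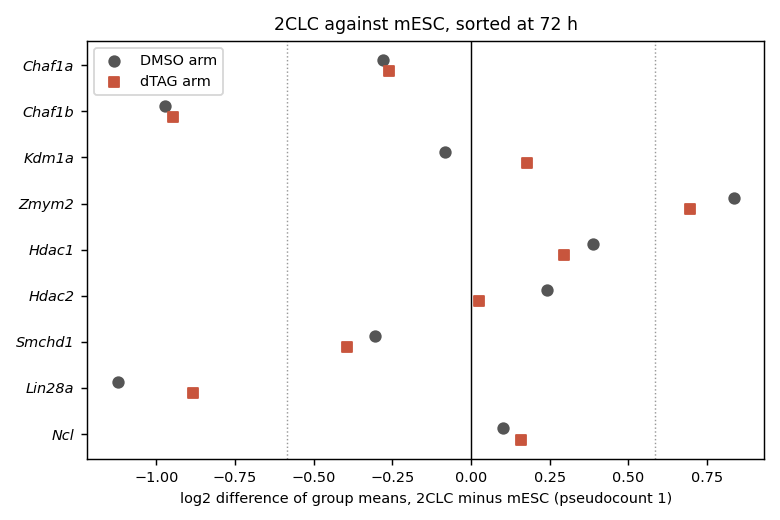
Difference of the log2 group means (pseudocount 1), 2CLC minus mESC, for each of the 9 genes in the DMSO arm (grey circles) and the dTAG arm (orange squares). Dotted lines mark 1.5-fold in either direction, and Chaf1b, Lin28a and Zmym2 lie outside them in both arms, with Kdm1a on opposite sides of 0.

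The time course asked how the transcripts followed the loss of EHMT2. The Ehmt2 transcript itself had 616 normalized counts in DMSO and 609 in dTAG at 24 h, and 622 and 582 at 7 d. It checks no label, since dTAG acts on the protein. The sum of the 2-cell-like markers was 201 and 2587 at 24 h, and 334 and 7754 at 7 d. The 9 repressors had much smaller differences. At 24 h, 1 of 9 was higher by 1.5-fold and none was lower, where 9.01% of all genes were higher by as much and 7.3% lower. At 7 d, none of the 9 passed in either direction, and 22.6% of all genes did. The dTAG effect of 7 d minus that of 24 h passed for none of them and for 25% of all genes.

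The gene past the limit at 24 h was Lin28a, with 3031 normalized counts in DMSO and 4895 in dTAG, 1.61-fold. At 7 d it had 5037 in DMSO and 6271 in dTAG, 1.245-fold. The DMSO means of 24 h and 7 d thus lay about as far apart as the dTAG and DMSO means at 24 h, and the 24 h DMSO group was the lowest of the 4. Ncl had 21830, 24749.6, 23430.1 and 31896 normalized counts in 24 h DMSO, 24 h dTAG, 7 d DMSO and 7 d dTAG, ratios of 1.13 and 1.36, and the 7 d dTAG group was the highest. At 7 d, 17 of 20 ribosome biogenesis genes were also above their DMSO level, with a median log2 difference of 0.30, and 2 of them were higher by 1.5-fold, as were 10.5% of all genes, whereas at 24 h 11 of 20 were above with a median of 0.0027.

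Hdac2 had 562 and 758 normalized counts in DMSO and dTAG at 24 h (1.35-fold) and 682 and 873 at 7 d (1.28-fold). Both dTAG means lay above both DMSO means. Hdac1 had 814 and 691 at 24 h (0.849) and 750.5 and 921 at 7 d (1.23-fold), so the direction turned with time, and the sum with Hdac1-ps was 4853 and 4554, then 4402 and 6025. The other 5 genes had ratios between 0.891 and 1.12 at both times. Chaf1a had 1868 and 1726 at 24 h and 1802 and 1726 at 7 d. Chaf1b had 644 and 574, then 646 and 665, and Kdm1a had 953 and 1063, then 1064 and 1038. Zmym2 had 951 and 1026, then 1024 and 1057, and Smchd1 had 629 and 667, then 693 and 717. The dTAG and DMSO means of Kdm1a, Zmym2 and Smchd1 were about as far apart as, or closer than, the DMSO means of 24 h and 7 d, and those of Chaf1a and Chaf1b were further apart. The summed fibroblast markers were 2104 and 2418 at 24 h and 1682 and 2432 at 7 d, with 6 of 10 measured markers higher by 1.5-fold at 7 d, against the 10.5% of all genes, and their part in these values was not tested.

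After 15 d, 0 of 9 genes differed by 1.5-fold between dTAG and DMSO, where 13.9% of all genes did. In the Recovery group, Zmym2 and Smchd1 were higher than in DMSO by 1.635-fold each, and none of the 9 was lower. Of all genes, 6.95% were higher by as much and 4.6% lower. Against dTAG for 15 d, no gene of the 9 in Recovery was past the limit, and 18.3% of all genes were. The sum of the 2-cell-like markers was 568 in DMSO, 14681 in dTAG and 910.3 in Recovery. In Recovery 6 of the 12 were still higher than in DMSO by 1.5-fold and none was lower, with a median log2 difference of 0.57, and all 12 were lower than in dTAG.

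Zmym2 had 909 normalized counts in DMSO, 1067 in dTAG and 1487 in Recovery, and Smchd1 had 547, 751 and 895. In both genes the order was DMSO, dTAG, Recovery, and after 8 d without dTAG the mean was further from DMSO than with it. Ncl had 29090.2, 31482 and 36832, the same order with smaller ratios (1.08 and 1.27 against DMSO). Hdac2 had 638, 707 and 719, with ratios of 1.11 and 1.13. Chaf1a had the reverse order, with 3421, 3212 and 3183. In the other 4 genes, dTAG had the lowest mean, and Recovery lay nearer to DMSO than to dTAG in all but Lin28a. Chaf1b had 1180.4, 1033 and 1188, and Kdm1a had 1607, 1374 and 1501. Hdac1 had 1356, 1158 and 1272 (11192, 9453 and 11204 summed with Hdac1-ps), and Lin28a had 17225, 13738 and 15331. The summed fibroblast markers were 2989 in DMSO, 3984 in dTAG and 1303 in Recovery, with 9 of 10 measured markers lower by 1.5-fold in Recovery than in dTAG, as were 12.4% of all genes. Their part in the Zmym2 and Smchd1 values was not tested.

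Across the experiments, EHMT2 was removed or inhibited in 7 comparisons with a control group of their own: dTAG for 24 h, 7 d and 15 d, dTAG in sorted mESC and in sorted 2CLC, and UNC0638 in WT and in KO. No library serves in more than 1 of them, but the first 3 use the same clones and the sorted pair comes from the same treatment. Hdac2 was higher in 7 of 7, by 1.11-fold (15 d) to 2.14-fold (UNC0638 in KO), and 4.56% of 15095 genes were higher in all 7. Chaf1a was lower in 7 of 7, though by little (ratios of 0.825 to 0.96), and 4.04% of genes were lower in all 7. Kdm1a was lower in 6 of 7, the 24 h comparison being the exception (1.12-fold), and 14.8% of genes were lower in 6 or more. Smchd1 was higher in 6 of 7, with UNC0638 in KO as the exception (0.736), and 14.4% of genes were higher in 6 or more. The remaining 5 genes had both directions in at least 2 comparisons each, Lin28a from 0.798 (15 d) to 1.61-fold (24 h). Hdac1 was higher in 4 of 7 by its own row and in 2 of 7 when summed with Hdac1-ps.

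**Figure D4:**
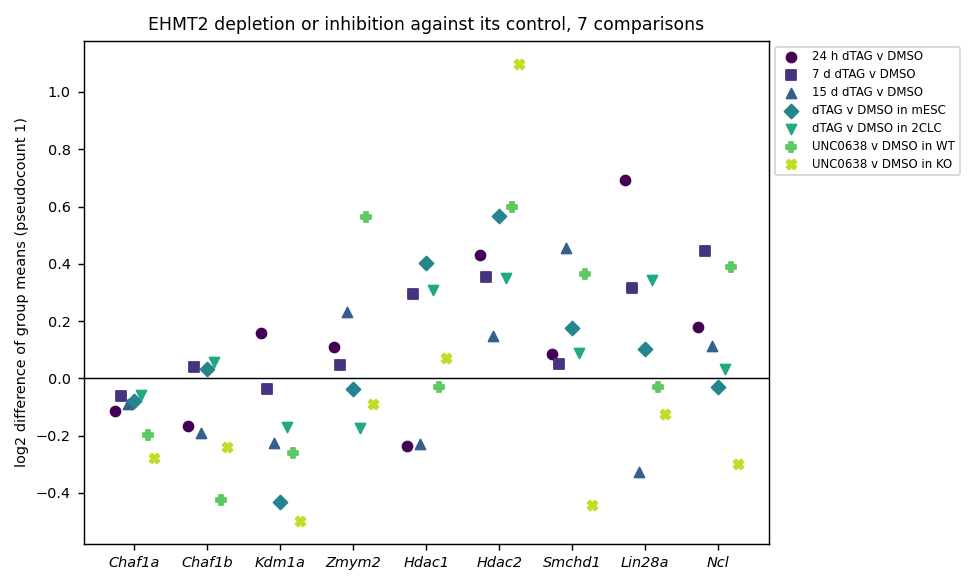
Difference of log2 group means (pseudocount 1) between EHMT2-depleted or UNC0638-treated groups and their controls, for each of the 9 genes in 7 comparisons (1 symbol each). All 7 symbols of Hdac2 lie above 0 and all 7 of Chaf1a lie below it.

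In the sorted cells, none of the 9 genes differed by 1.5-fold between dTAG and DMSO in mESC or in 2CLC, where 22.4% of all genes were past the limit in each. Hdac2 in mESC came closest, at 1.48-fold (246 and 364), followed by Kdm1a in mESC at 0.742 times its DMSO level. In 2CLC their ratios were 1.27 and 0.888. Hdac1 was 1.32-fold higher with dTAG in mESC, but the sum with Hdac1-ps went from 3685 to 3392, the other direction. The dTAG effect in 2CLC minus that in mESC was within 1.5-fold for all 9 genes and past it for 24.7% of all genes.

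The UNC0638 experiment is the only one with a value for each library, and its 12 libraries held 8399885 to 12710949 gene reads. It asked whether inhibition of EHMT1 and EHMT2 acted alike with and without DPPA4. Dppa4 had 700.4, 868 and 920.5 normalized counts in the 3 WT DMSO libraries and 0 in all 6 KO libraries, as the name of the line says. The summed 2-cell-like markers were 718 in WT DMSO, 3035 in WT UNC0638, 1.93 in KO DMSO and 1.16 in KO UNC0638. Expression was fitted with limma on log2 of the normalized count plus 1 over 17171 genes, with Benjamini-Hochberg adjustment and two-sided tests. In none of the 4 planned contrasts did any of the 9 genes reach an adjusted p under 0.05 by limma. Hdac1 was counted by its own row in these tests. By unadjusted p under 0.05, 1 of 9 passed for UNC0638 in WT (Ncl), 2 in KO (Kdm1a and Hdac2), 1 for KO against WT in DMSO (Kdm1a) and 1 for the difference of the UNC0638 effects (Ncl), where 8.72%, 15.5%, 24.1% and 6.24% of all genes passed in the same order. Of all 17171 genes, limma called 0 for UNC0638 in WT (1497 by unadjusted p, 0 by edgeR, 19 by DESeq2), 0.588% for UNC0638 in KO, 6.65% for KO against WT, and 0 for the difference (1071 by unadjusted p, 0 by edgeR and 0 by DESeq2). edgeR also called none of the 9 genes in these contrasts, and DESeq2 called 2, Hdac2 (adjusted p = 0.00994) and Kdm1a (adjusted p = 0.0459), both for UNC0638 in KO. Of all 17171 genes, edgeR called 44 and DESeq2 632 for UNC0638 in KO, and 992 and 1895 for KO against WT.

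Hdac2 had 212, 162 and 219 normalized counts in WT DMSO and 412, 233 and 253 in WT UNC0638. In KO it had 141, 175 and 208 in DMSO and 282, 512 and 332 in UNC0638. The UNC0638 libraries lay above the DMSO libraries without overlap in both genotypes, which held for 1.74% of all genes. The log2 difference was 1.07 in KO (SE 0.27, 95% interval 0.505 to 1.64, limma adjusted p = 0.0711) and 0.56 in WT (SE 0.27, 95% interval -0.0039 to 1.13, limma adjusted p = 0.562). The difference between these effects, 0.51 (SE 0.38, limma adjusted p = 0.789), was within its error. Averaged over both genotypes, a contrast added after the values were seen, the difference was 0.82 (SE 0.19, limma adjusted p = 0.0512). It passed the threshold by edgeR (adjusted p = 0.0451), by DESeq2 (adjusted p = 0.0027) and with the replicate number as a block in limma (adjusted p = 0.0382). In that average limma called 0 of the 9 genes and 0.973% of all genes, and 4 of the 9 had an unadjusted p under 0.05 (Chaf1a, Chaf1b, Kdm1a and Hdac2), as did 17.6% of all genes.

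Kdm1a, by contrast, was lower with UNC0638. It had 1289, 1015 and 1082 normalized counts in WT DMSO, 965, 981 and 877 in WT UNC0638, 1409.95, 1607 and 1251 in KO DMSO, and 1081, 911 and 1031 in KO UNC0638. The treated libraries lay below the DMSO libraries without overlap in both genotypes, as in 1.68% of all genes. The log2 difference was -0.49 in KO (SE 0.16, 95% interval -0.82 to -0.16, limma adjusted p = 0.141) and -0.26 in WT (SE 0.16, limma adjusted p = 0.589), with an average of -0.37 (SE 0.11, limma adjusted p = 0.0978). In DMSO it was 0.33 higher in KO than in WT (SE 0.16, limma adjusted p = 0.202), with overlapping libraries.

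Of the CAF-1 subunits, Chaf1a had 1246, 1053 and 951 normalized counts in WT DMSO, 953, 962 and 917 in WT UNC0638, 1207, 1399 and 1167 in KO DMSO, and 1113, 1059 and 939 in KO UNC0638. The groups did not overlap in KO and overlapped in WT. Chaf1b had 409.6, 304 and 412 in WT DMSO and 254, 267 and 316 in WT UNC0638, and 465, 337 and 322 in KO DMSO against 309.96, 329 and 313 in KO UNC0638, so its groups overlapped in both genotypes. The average log2 differences were -0.23 for Chaf1a (SE 0.11, limma adjusted p = 0.272) and -0.32 for Chaf1b (SE 0.14, limma adjusted p = 0.249). Among the 20 DNA replication genes, the median log2 difference with UNC0638 was -0.23 in WT and -0.24 in KO. By limma none of them was called, but of all genes only 0 in WT and 0.588% in KO were, so the lack of calls says little about these genes.

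For Ncl, UNC0638 and DMSO libraries stood apart in WT and overlapped in KO. It had 3013, 3991 and 3119.8 normalized counts in WT DMSO and 4845, 4277 and 4139 in WT UNC0638, all above their controls. In KO it had 2996, 2459.6 and 3963 in DMSO and 2621, 2865 and 2172 in UNC0638, which overlapped. The effect was 0.40 in WT (SE 0.18, limma adjusted p = 0.562) and -0.28 in KO (SE 0.18, limma adjusted p = 0.495), and the difference of -0.68 (SE 0.26) had a limma p of 0.0182 that did not hold after adjustment (adjusted p = 0.775). The sign in KO rested on replicate 3, without which the estimate was 0.014. Zmym2 had 173, 332 and 274 in WT DMSO and 432, 349 and 373 in WT UNC0638, without overlap, and 315, 255 and 429 in KO DMSO against 304, 466 and 169 in KO UNC0638, where the treated libraries spanned the controls. The effect of Zmym2 in KO was 0.41 without replicate 3 and -0.69 without replicate 2, and the difference of effects was -0.78 (SE 0.45, limma adjusted p = 0.775).

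Smchd1 had 54.7, 87.3 and 80.4 normalized counts in WT DMSO, 108, 81.3 and 97.4 in WT UNC0638, 48.9, 73.4 and 102 in KO DMSO, and 59.8, 73.1 and 31.4 in KO UNC0638, with overlap in both genotypes and a difference of effects of -0.84 (SE 0.51, limma adjusted p = 0.775). Lin28a had 7599, 7106 and 5443 in WT DMSO and 7124, 7047 and 5556 in WT UNC0638, nearly the same values, and 5335, 5756 and 6314 in KO DMSO against 4928, 5939 and 5119 in KO UNC0638. Hdac1 had 141, 94.7 and 122 in WT DMSO and 98.6, 121 and 130.1 in WT UNC0638, and 84.1, 83.5 and 96.3 against 96.6, 79.6 and 101 in KO. None of these 3 genes had an unadjusted p under 0.05, Hdac1 by its own row. The Hdac1-ps row had a limma p of 0.045 for UNC0638 in WT (adjusted p = 0.562). For KO against WT in DMSO its limma p was 0.033 (adjusted p = 0.168). For Hdac1 the limma difference with UNC0638 was -0.02 in WT and 0.07 in KO. For the sum with Hdac1-ps it was -0.30 in WT and -0.057 in KO. Between KO and WT in DMSO the difference was -0.42 for Hdac1 and -0.33 for the sum (SE 0.14, limma adjusted p = 0.165).

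Without overlap, UNC0638 libraries were thus above DMSO for Zmym2, Hdac2 and Ncl and below it for Kdm1a in WT, and above it for Hdac2 and below it for Chaf1a and Kdm1a in KO. Of all genes, 9.81% were apart upward and 10.1% downward in WT, and 8.88% and 8.06% in KO. Between KO and WT in DMSO, all 9 genes overlapped, Hdac1 by its own row. There, 13.5% of all genes were higher and 16.1% lower without overlap. The Hdac1-ps libraries did not overlap, with 6774, 6047 and 6453 normalized counts in WT DMSO and 4655, 5384 and 5332 in KO DMSO. Those of WT UNC0638 (4939, 4887 and 5800) also lay below WT DMSO without overlap. With 3 libraries a group, an exact permutation test could not give a p under 0.1. The summed fibroblast markers were 2678 in WT DMSO, 2389 in WT UNC0638, 1572 in KO DMSO and 1719 in KO UNC0638, with Lum at 0 in 3 of the 4 groups, and their part in the values was not tested.

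**Figure D5:**
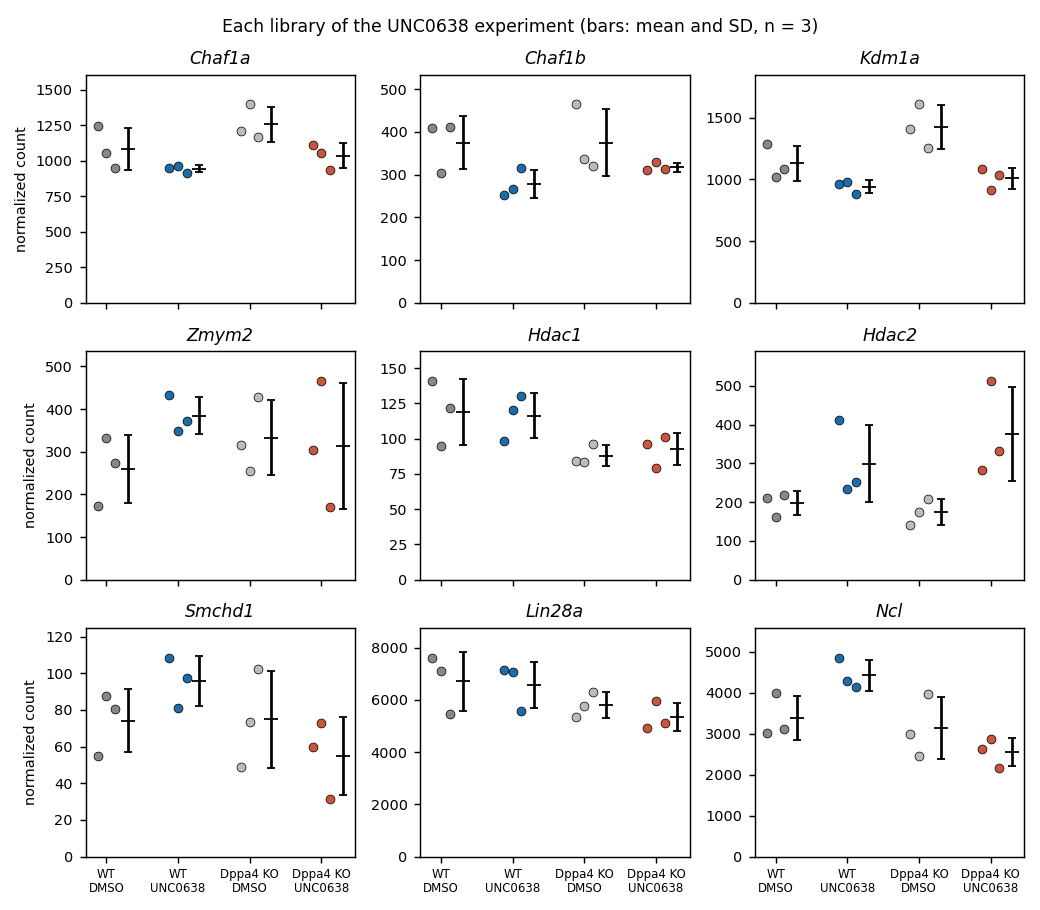
Normalized count of each library (dots) with the mean and SD of its group (bars, n = 3) for the 9 genes in WT and Dppa4 KO cells given DMSO or UNC0638 for 48 h, on axes from 0. The treated dots of Hdac2 lie above and those of Kdm1a below their DMSO dots in both genotypes.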

How the data were processed

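The authors trimmed reads with Trim Galore 0.6.7, aligned them to mm10 with STAR 2.7.10 end to end and without introns, wrote each read with several places to 1 random place, and counted GENCODE vM25 genes with TE Counts. The deposited signal values are read counts that the authors divided by DESeq2 1.34.0 size factors (called normalized counts here), given per library for the UNC0638 experiment and as group means for the rest. Columns with the authors' fold changes and p-values were not used, and 10 of 18 deposited files were left out.

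The 9 genes, the lists and the tests were chosen with earlier results of these data known. limma was planned for all comparisons, but the group means allowed no fit for 11 of them, and these are given as ratios of means. The UNC0638 libraries were fitted with limma 3.58.1 (trend, R 4.3.3) on log2(value + 1) for genes with a value of at least 10 in at least 3 libraries, 4 groups in 1 model without a block. Their reads, whole for 100% of values (tolerance 0.001), were tested again with edgeR 4.0.16 (quasi-likelihood) and DESeq2 1.42.0, and limma was also run on other settings. The method was tested on simulated data with 200 changed genes and 1 fixed spread for all genes. At 1.5-fold, limma and edgeR found 0 of the 200 for UNC0638 in WT and in KO, and DESeq2 found 8 and 20. At 2-fold, limma found 93 in WT and 84 in KO. A lack of calls among the 9 genes therefore does not show that they were unchanged. Between DMSO and UNC0638, deviations of same-numbered WT libraries had r of 0.251, 0.101 and 0.434, against -0.307 to 0.0463 for different numbers. In KO, same numbers had 0.157, -0.0881 and 0.0111, and different numbers -0.128 to 0.12. Same numbers thus stood above different ones in WT and were mixed with them in KO. The labels tie no number to a clone. The text names all 9 genes, Ehmt2 and Dppa4, copies of the 9, MERVL-int, and at most 3 genes a direction from each list, those with the largest difference between 2CLC and mESC in DMSO, of which 1 is not reported here. Sox2, Nanog, Thy1, Lum and Dcn were named after their values were seen. The alignments of copies used blastn 2.17.0 on GENCODE vM21 transcripts annotated as pseudogenes, in the sense direction only.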

Additional observations from a re-analysis of the deposited data

How the results depend on the processing

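For the 11 comparisons of group means, a pseudocount of 5, TMM scaling and no filter on low values left the count of repressors past 1.5-fold as it was, while no filter raised the number of all genes past it to 7511 (24 h), 9203 (7 d), 10957 (7 d minus 24 h), 6974 (15 d), 5433 (Recovery against DMSO), 7915 (Recovery against dTAG), 16879 and 15921 (2CLC against mESC in DMSO and in dTAG), 9739 and 12311 (dTAG in mESC and in 2CLC) and 14102 (their difference), as low genes entered. edgeR, DESeq2 and leave-one-out fits could not be run on group means. No paired analysis was possible because these tables hold 1 column a group. In the UNC0638 experiment, DESeq2 called 19 genes in WT, 632 in KO (2 repressors), 1895 for KO against WT and 830 for the average of both genotypes (2 repressors, Hdac2 and Kdm1a). With the replicate number as a block the calls were 345 in KO, 1990 for KO against WT and 460 for the average, with Hdac2 called in the average, and the block changed no other call among the 9 genes. For UNC0638 in KO, edgeR called 44 genes and limma without a filter 12, and for the average limma without a filter called 71. Hdac2, at an adjusted p of 0.0512 in the average, was the 1 repressor called there with a pseudocount of 5 (adjusted p = 0.0457), TMM (adjusted p = 0.0486) or edgeR (adjusted p = 0.0451), and without replicate 3. Without 1 replicate number at a time, 0 to 1 genes were called in WT, 0 (without replicate 1) to 107 (without replicate 3) in KO, 41 (without replicate 2) to 911 for KO against WT, with 483 without replicate 1, and 4 (without replicate 1 or 2) to 482 (without replicate 3) for the average (0 to 1 repressors). Of the log2 differences, those of Chaf1b for KO against WT turned to 0.010 with TMM and 0.015 with edgeR, of Smchd1 there to 0.024 with edgeR and 0.0089 with DESeq2, and of Hdac1, summed with Hdac1-ps, to -0.057 for UNC0638 in KO and -0.18 in the average. Without 1 replicate number at a time the sign depended on the libraries kept for these differences. They were, for UNC0638 in WT, Hdac1 (-0.21 to 0.22) and Lin28a (-0.053 to 0.0088). For UNC0638 in KO they were Zmym2 (-0.69 to 0.41), Smchd1 (-0.84 to 0.14) and Ncl (-0.53 to 0.014). For KO against WT they were Chaf1b (-0.10 to 0.17), Hdac2 (-0.33 to 0.019), Smchd1 (-0.20 to 0.092) and Ncl (-0.35 to 0.17). For the effect in KO minus WT they were Chaf1a (-0.27 to 0.0047), Kdm1a (-0.37 to 0.029), Hdac1 (-0.22 to 0.34) and Lin28a (-0.18 to 0.018). For the average they were Hdac1 (-0.036 to 0.11), Smchd1 (-0.38 to 0.29) and Ncl (-0.035 to 0.20). The causes were not tested.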

Other observations

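Other proteins known to repress the 2-cell-like state were read from a list of 20 genes chosen, like the 9 above, with earlier results known. In sorted DMSO cells, Rif1, a replication-timing factor, was higher in 2CLC (2816 and 5519.5 normalized counts, 1.96-fold), and Ehmt2 (116 and 64.6, 0.5585), Mga (2358 and 1423, 0.604) and the maintenance DNA methyltransferase Dnmt1 (433 and 265, 0.611) were lower. With dTAG the ratios were 1.72, 0.672, 0.621 and 0.547. At the limit of 1.5-fold, 1 of 20 was higher and 3 lower in DMSO, and 3 and 2 in dTAG, where 25.7% and 20.2% of all genes were past it in DMSO and 23.2% and 19.2% in dTAG. In 24 h, 7 d and 15 d of dTAG, none of the 20 passed. Of all genes, 9.01% were higher and 7.3% lower at 24 h, and 22.6% at 7 d and 13.9% at 15 d passed in either direction. With UNC0638, limma called none of the 20 in either genotype, but of all genes it called 0 in WT and 0.588% in KO.

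The 20 genes of ribosome biogenesis, read beside Ncl, varied between experiments. In sorted mESC all 20 had a higher mean with dTAG (median log2 difference 0.38, 2 past 1.5-fold, against 22.4% of all genes in either direction), and in sorted 2CLC 15 of 20 did (median 0.25, 1 past it). After 15 d of dTAG, 18 of 20 had a lower mean (median -0.20), none past 1.5-fold (13.9% of all genes in either direction), while Ncl was 1.08-fold higher. With UNC0638, 7 of 20 had an estimate above 0 in WT (median -0.105) and 16 of 20 in KO (median 0.24), whereas Ncl was at 0.40 in WT and -0.28 in KO. There limma called none of the 20, and 0 and 0.588% of all genes in WT and KO. In KO against WT in DMSO, 18 of 20 were below 0 (median -0.44), and limma called 2 of them lower, where it called 6.65% of all genes in either direction. The median over all genes lay between -0.024 (KO against WT) and 0.032 (dTAG in sorted mESC) in these comparisons.

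In Recovery against DMSO, 2 of the 20 other repressors were higher by 1.5-fold and none was lower, where 6.95% of all genes were higher and 4.6% lower. Without values per library, how far the 3 clones differ in the Zmym2 and Smchd1 means of that group was not tested.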
